A study of Mus musculus with 48 samples.

Results

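Sult5a1, Hif3a, Sptbn5 and Myo3b are 4 genes, of 47569 gene IDs counted in both sets of RNA tables, that were chosen by their whole CA RNA values, which were higher in the libraries labelled Setd1b cKO. They were found by symbol, through their Ensembl IDs (ENSMUSG00000000739, ENSMUSG00000004328, ENSMUSG00000074899 and ENSMUSG00000042064). Their difference between genotypes in whole CA RNA is therefore a description, given without a test. The neuron RNA and histone mark libraries, which took no part in the choice, carry the tests of genotype. The study compared Setd1b conditional knockout mice (genotype Setd1b cKO) with mice labelled Control, all C57BL/6J adults aged 4 to 6 months and with no further treatment in the labels. The product of Setd1b is a methyltransferase for lysine 4 of histone H3 (H3K4). Neuron RNA comprised 3 libraries of each genotype and whole CA RNA, from the CA region of the hippocampus, 6 of each. Sorted neuronal nuclei gave ChIP-seq peak lists of H3K4me3 and H3K4me1 in 4 libraries of each genotype, of H3K27ac in 3 labelled control and 4 labelled cKO, and of H3K9ac in 4 and 3. The driver of the deletion, the exons removed, and whether each library came from its own animal are not given in the sources used here, so p-values measure the spread between libraries.

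The 4 genes belong to families with unrelated roles. Sult5a1 encodes a member of the cytosolic sulfotransferases, which move sulfate from the donor PAPS onto small molecules such as steroids, phenols and neurotransmitters. Hif3a encodes an alpha subunit of the hypoxia-inducible factors, which pair with ARNT proteins on DNA, are marked for destruction by prolyl hydroxylases and VHL when oxygen is present, and in the case of HIF3A also exist as splice forms that inhibit the other alpha subunits. Sptbn5 encodes beta-V spectrin, a large member of the spectrin family that lines membranes with an actin-linked skeleton. Myo3b encodes a class III myosin, an actin motor with a kinase domain that is best known from the actin protrusions of sensory cells, where its relative MYO3A works with the actin bundler ESPN.

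The letters upstream of the start sites of the 4 genes are shown because the genes were higher together and because histone marks were measured at their starts. Each line holds the 250 bases before the RefSeq start site (RefSeq, GRCm38.p6), read 5′ to 3′ on the strand of the gene, with CpG dinucleotides in capitals. The RefSeq span of Sult5a1 runs past the start site used, to base 123158914, so its window lies inside the annotated gene, whereas those of the other 3 lie outside.
Sult5a1, chr8:123158281-123158530, minus strand: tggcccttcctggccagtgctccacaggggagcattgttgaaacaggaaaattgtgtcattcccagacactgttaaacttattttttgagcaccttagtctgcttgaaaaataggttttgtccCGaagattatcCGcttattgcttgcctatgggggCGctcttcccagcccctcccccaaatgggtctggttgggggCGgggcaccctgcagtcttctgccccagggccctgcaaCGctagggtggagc
Hif3a, chr7:17062428-17062677, minus strand: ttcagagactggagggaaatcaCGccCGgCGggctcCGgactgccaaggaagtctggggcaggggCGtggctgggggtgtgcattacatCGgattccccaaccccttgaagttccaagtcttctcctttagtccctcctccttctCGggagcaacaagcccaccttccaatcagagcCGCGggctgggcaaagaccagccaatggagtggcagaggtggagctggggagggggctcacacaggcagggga
Sptbn5, chr2:120088914-120089163, minus strand: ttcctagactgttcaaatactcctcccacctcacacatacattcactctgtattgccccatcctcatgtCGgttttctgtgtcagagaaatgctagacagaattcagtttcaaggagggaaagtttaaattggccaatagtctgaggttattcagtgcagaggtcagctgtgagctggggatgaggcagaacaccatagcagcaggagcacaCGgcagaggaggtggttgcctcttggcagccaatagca
Myo3b, chr2:70038876-70039125, plus strand: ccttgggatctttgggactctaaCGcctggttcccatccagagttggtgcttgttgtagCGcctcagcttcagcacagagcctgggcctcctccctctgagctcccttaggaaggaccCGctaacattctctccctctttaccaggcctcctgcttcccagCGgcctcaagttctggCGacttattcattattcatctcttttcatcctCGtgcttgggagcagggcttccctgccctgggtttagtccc
The windows held 5, 9, 2 and 6 CpG dinucleotides in Sult5a1, Hif3a, Sptbn5 and Myo3b, against a median of 6 over 32841 promoters of the same table. Their GC content was 54.4%, 62.0%, 48.4% and 56.0%, against a median of 52.4%. Searched on both strands, GGGCGG, the GC box, occurred 1 time in Sult5a1 and in none of the other 3, and 32.7% of all promoters held it. CCAAT occurred 2 times in Hif3a and 3 times in Sptbn5, with 33.9% of all promoters holding it. Neither TATAAA (12.4% of promoters) nor ACGTG, a form of the core HIF site (16.6%), was in any of the 4 windows. GCGTG, the other form of that site, was not counted over the promoters, and the Hif3a letters above hold it on both strands. None of these motifs contains another, and no motif was in all 4 windows.

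Counted reads amounted to 55.7 to 69.1 M per neuron RNA library and 14.9 to 20.1 M per whole CA library. Levels of single genes are counts per 1000000 reads (CPM), scaled by TMM factors within each material. Marker sums are CPM from library size alone, without these factors. Levels are not divided by gene length, and so they are compared within a gene only. Setd1b itself was no lower where the label said cKO. In neuron RNA it stood at 60.2, 62.0 and 71.6 CPM in those libraries and at 65.5, 50.2 and 47.8 CPM in libraries labelled control (log2 fold change 0.25, SE 0.13, edgeR adjusted p 0.361). In whole CA RNA it ranged from 53.2 to 68.0 CPM (median 57.4) in libraries labelled cKO and from 29.3 to 54.6 CPM (median 37.9) in libraries labelled control (log2 fold change 0.59, SE 0.11, edgeR adjusted p 0.00415). Single exons were not counted, and because these counts go against the genotype names, libraries are called as they were labelled. Summed astrocyte markers stood at 28.9 to 36.8 CPM in neuron RNA and at 1450 to 1810 CPM in whole CA RNA, while summed neuron markers stood at 3452 to 4375 and 7138 to 8544 CPM.

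In whole CA RNA, the contrast that chose them, all 4 genes separated the genotypes, with the lowest library labelled cKO above the highest control. Sult5a1 ranged from 1.78 to 3.08 CPM (median 2.77) in the 6 libraries labelled control and from 5.12 to 7.29 CPM (median 6.07) in the 6 labelled cKO. Hif3a ranged from 2.56 to 4.66 CPM (median 3.30) and from 4.73 to 11 CPM (median 8.35), so its groups met most closely. Sptbn5 ranged from 1.01 to 1.48 CPM (median 1.25) and from 2.16 to 3.53 CPM (median 2.68). Myo3b ranged from 1.24 to 2.21 CPM (median 1.73) and from 2.82 to 4.73 CPM (median 3.18). These levels rest on few reads, with 17 to 25 counts of Sptbn5 per control library and 30 to 52 of Sult5a1. The log2 fold changes were 1.22 for Sult5a1 (SE 0.14), 1.19 for Hif3a (SE 0.19), 1.15 for Sptbn5 (SE 0.17) and 0.99 for Myo3b (SE 0.18), which are 2.33-fold, 2.27-fold, 2.22-fold and 1.98-fold. In whole CA RNA 1.38% of 15362 tested genes were called higher (edgeR adjusted p under 0.05) and 1.15% were higher without overlap of the libraries. The 4 genes were ranked from 2 to 5 by fold change among 121 genes that were called higher, did not overlap and had a mean log2 CPM of at least 1. Among all 15362 tested genes Sult5a1, Hif3a, Sptbn5 and Myo3b were ranked 4, 5, 7 and 24. These ranks are no separate evidence, because the genes were chosen for their rise here.

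Replicates 1 to 3 and 4 to 6 of whole CA RNA came from different sequencing lanes, going by their file names. Sult5a1 differed by nearly the same amount in both lanes, with log2 fold changes of 1.22 (SE 0.18) and 1.23 (SE 0.21). Hif3a had 1.52 (SE 0.18) in the first and 0.88 (SE 0.28) in the other, where the 3 libraries labelled cKO spread over 7.26 ± 3.29 CPM (SD, n = 3). Sptbn5 had 1.03 and 1.29 (SE 0.28 and 0.26), and Myo3b 0.86 and 1.09 (SE 0.27 and 0.25). Since no control library reached a library labelled cKO for these genes, the direction within a lane was fixed by their choice.

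Neuron RNA, which took no part in the choice, asked whether the difference was also there in the material labelled as CA neurons. The sources used here do not make clear how its RNA was isolated. Mitochondrial genes took 0.00814 to 0.0144% of its counts, against 3.41 to 7.05% in whole CA RNA. Prox1, a marker of dentate granule cells, averaged 75.2 ± 3.94 CPM (SD, n = 3) in its control libraries and 42.8 ± 5.18 CPM (SD, n = 6) in those of whole CA. Sptbn5, Sult5a1 and Myo3b rose in the libraries labelled cKO, and Hif3a lay higher without passing the test. So 3 of the 4 genes were called higher, against 0.744% of 19622 genes tested (146 higher, 393 lower, edgeR adjusted p under 0.05), and all 4 were higher without overlap, against 11.4% of the genes tested. DESeq2 in place of edgeR called 235 genes higher and 598 lower and left the calls of the 4 genes as they were.

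Sptbn5, the spectrin gene, stood at 3.32, 2.26 and 2.88 CPM in neuron libraries labelled control 1 to 3 and at 5.70, 5.35 and 6.49 CPM in those labelled cKO 1 to 3. The lowest library labelled cKO lay above the highest control by more than either group's SD (0.53 and 0.59 CPM, n = 3). Its log2 fold change was 1.05 (SE 0.15, 95% interval 0.70 to 1.40, edgeR adjusted p 0.00661), a 2.07-fold rise, higher in 3 of 3 libraries. The call held in all 12 alternative fits, with adjusted p up to 0.0478 when single libraries were left out.

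Sult5a1, the sulfotransferase, stood at 2.58, 1.74 and 2.22 CPM in neuron libraries labelled control and at 4.73, 3.55 and 4.67 CPM in those labelled cKO. All 3 libraries labelled cKO were above all 3 controls. The log2 fold change was 0.98 (SE 0.18, 95% interval 0.59 to 1.38, edgeR adjusted p 0.0182), a 1.98-fold rise from 107 to 156 counts per control library to 228 to 315 counts. The call was lost without cKO replicate 1 (adjusted p 0.111), control replicate 2 (0.0532) or control replicate 3 (0.0736), with log2 fold changes of 0.91, 0.84 and 0.99.

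Myo3b, the class III myosin, stood at 1.94, 1.98 and 1.95 CPM in neuron libraries labelled control and at 3.24, 3.04 and 3.33 CPM in those labelled cKO. The libraries within each genotype lay close together, with a coefficient of variation of 1.27% in the controls and 4.70% in libraries labelled cKO. The log2 fold change was 0.71 (SE 0.12, 95% interval 0.44 to 0.99, edgeR adjusted p 0.0153), a 1.64-fold rise. The call was lost without cKO replicate 1 (adjusted p 0.0703), control replicate 2 (0.0532) or control replicate 3 (0.0743) and under a replicate block (0.0605), while the log2 fold change without single libraries lay between 0.68 and 0.74.

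Hif3a, the HIF alpha subunit, stood at 5.69, 4.94 and 5.71 CPM in neuron libraries labelled control and at 10.2, 6.97 and 6.53 CPM in those labelled cKO. The groups did not overlap, but 1 library labelled cKO lay far above the other 2. The log2 fold change was 0.54 (SE 0.17, 95% interval 0.16 to 0.91, edgeR adjusted p 0.149), 1.45-fold, and it did not pass the threshold in any of 12 alternative fits. Without cKO replicate 1, the highest library, it was 0.31 (adjusted p 0.329).

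**Figure D1:**
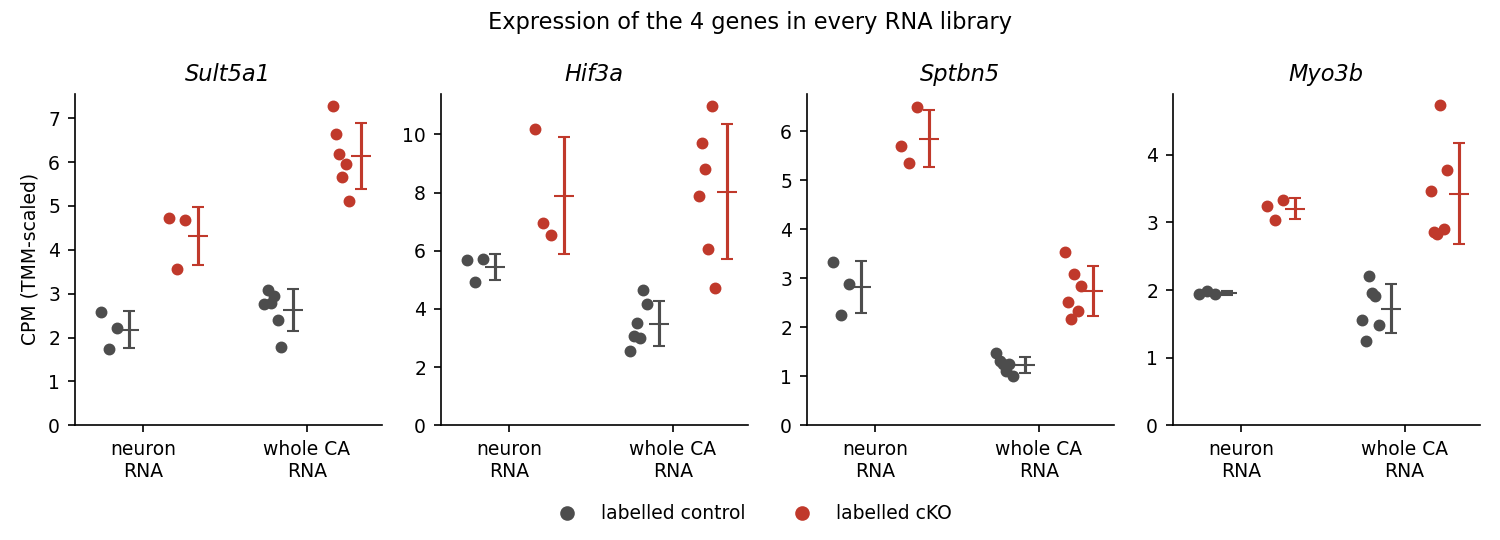
TMM-scaled CPM (vertical axis, starting at 0) of the 4 genes in every RNA library, with 1 point per library, grey for libraries labelled control and red for those labelled cKO; bars give the mean and SD beside the points. In each gene and each material the red points lie above the grey ones, most closely for Hif3a in whole CA RNA, where 4.66 CPM in a control library meets 4.73 CPM in a library labelled cKO.

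Set side by side, the log2 fold changes in neuron RNA and whole CA RNA were 0.98 and 1.22 for Sult5a1, 0.54 and 1.19 for Hif3a, 1.05 and 1.15 for Sptbn5, and 0.71 and 0.99 for Myo3b. The value was lower in neuron RNA for each of the 4, and the difference was not tested because whole CA RNA had chosen the genes. The 95% intervals of both materials overlapped for each gene.

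**Figure D2:**
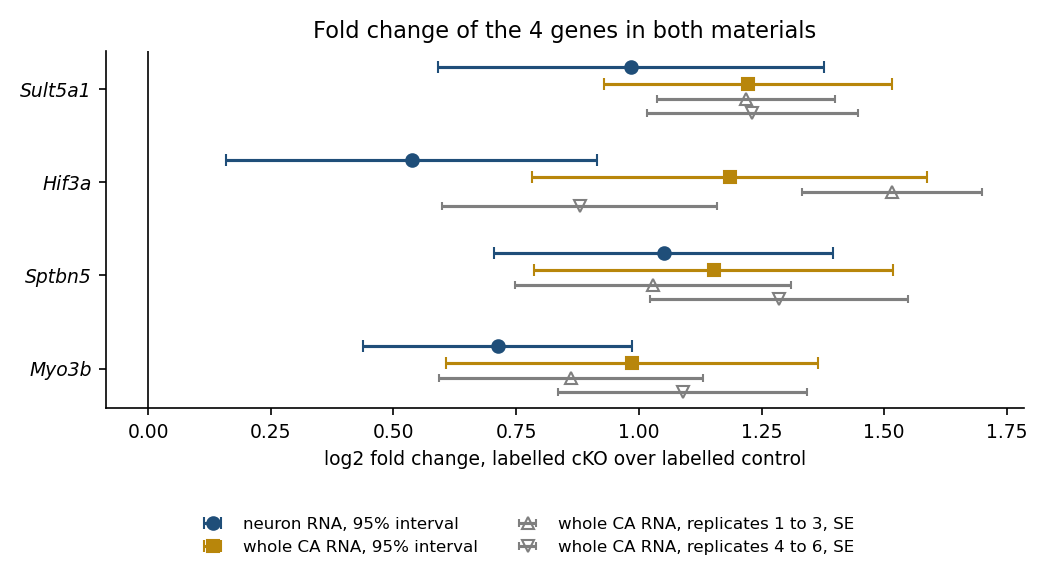
Log2 ratio of the groups labelled cKO and control (horizontal axis, above 0 where cKO was higher) for each gene, in neuron RNA (circles) and whole CA RNA (squares) with 95% intervals, and within both lanes of whole CA RNA (triangles) with standard errors. All values lie to the right of 0, and Hif3a spreads most, from 0.54 in neuron RNA to 1.52 in whole CA replicates 1 to 3.

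Ordered by group mean, with CPM scaled separately within each material, Sult5a1 was lowest in control neuron RNA (2.18 ± 0.42 CPM, SD, n = 3), then control whole CA (2.63 ± 0.47, n = 6), neuron RNA labelled cKO (4.32 ± 0.66, n = 3) and whole CA labelled cKO (6.14 ± 0.76, n = 6). Only the first pair of neighbours overlapped. Hif3a took the order control whole CA (3.50 ± 0.79 CPM, SD, n = 6), control neuron (5.45 ± 0.44, n = 3), neuron labelled cKO (7.90 ± 2.0, n = 3) and whole CA labelled cKO (8.03 ± 2.32, n = 6), and the last pair overlapped. Sptbn5 took the order control whole CA (1.23 ± 0.16 CPM, SD, n = 6), whole CA labelled cKO (2.74 ± 0.51, n = 6), control neuron (2.82 ± 0.53, n = 3) and neuron labelled cKO (5.85 ± 0.59, n = 3), with overlap of the middle pair. Myo3b took the order control whole CA (1.73 ± 0.36 CPM, SD, n = 6), control neuron (1.96 ± 0.02, n = 3), neuron labelled cKO (3.21 ± 0.15, n = 3) and whole CA labelled cKO (3.43 ± 0.75, n = 6), where the first pair and the last pair overlapped.

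A joint fit of the control libraries placed Sptbn5 higher in neuron RNA than in whole CA RNA by 1.04 on the log2 scale (SE 0.19, edgeR adjusted p 7.91e-05) and Hif3a by 0.47 (SE 0.17, adjusted p 0.0148). The Sult5a1 difference was −0.42 (SE 0.19, adjusted p 0.0513) and that of Myo3b 0.01 (SE 0.19, 95% interval −0.38 to 0.41, adjusted p 0.945). In this comparison 83.6% of 16859 genes were called, and the material and the depth, which differed with it, cannot be told apart. The whole CA control values also took part in choosing the genes, and low values there favoured the choice. Such a choice tends to raise the difference towards neuron RNA, so these p-values and calls are not independent of it. The Hif3a call was lost without neuron control replicate 3 (adjusted p 0.0539), and Sult5a1 gained one without neuron control replicate 1 (0.0238) or whole CA control replicate 6 (0.0159).

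None of 8 tested genes of sulfation (of 17 listed) was called in either material, where 2.75% of all genes were called in neuron RNA, and 4.17% in RNA of whole CA. Sult4a1, the brain sulfotransferase, averaged 170 ± 9.21 CPM (SD, n = 3) in control neurons and 159 ± 14.8 CPM in those labelled cKO, and in whole CA RNA it averaged 433 ± 27.8 and 450 ± 23.8 CPM (SD, n = 6). Sult1a1, a phenol sulfotransferase, had log2 fold changes of 0.00 and 0.26 (edgeR adjusted p 0.996 and 0.429). The list had a median log2 fold change of −0.07 (neuron) and 0.05 (whole CA), beside 0.02 and 0.00 over all genes tested.

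Of the other HIF subunits and oxygen-sensing genes, Arnt2, the neuronal partner of the HIF alpha subunits, was called higher in whole CA RNA, 1 of 9 tested, where 1.38% of all genes were called higher. It averaged 405 ± 5.53 CPM (SD, n = 6) in controls and 481 ± 28.1 CPM in libraries labelled cKO, without overlap (log2 fold change 0.25, SE 0.05, edgeR adjusted p 0.00358), and the call was lost within single lanes. In neuron RNA none of 9 was called, and Arnt2 had 0.13 (SE 0.09, adjusted p 0.502). Hif1a, the main hypoxia-stabilised alpha subunit, had log2 fold changes of 0.25 (SE 0.15, adjusted p 0.436) in neuron RNA and 0.01 (SE 0.08, adjusted p 0.965) in whole CA RNA. Epas1, which encodes HIF2A, had −0.08 and −0.01 (adjusted p 0.811 and 0.965).

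Among target genes of the HIF pathway 0 of 21 tested were called higher and 3 lower in neuron RNA, where 2.75% of all genes were called in either direction. The 3 were Hk2, a hexokinase that starts glycolysis (log2 fold change −0.83, SE 0.14, edgeR adjusted p 0.0156), Bhlhe40, a clock-related repressor (−0.57, SE 0.11, adjusted p 0.0227), and Vegfa, the blood vessel growth factor (−0.42, SE 0.08, adjusted p 0.0195). Without cKO replicate 1 or 2, and under a replicate block, each of the 3 lost its call, Vegfa in 6 of 12 alternatives and Hk2 and Bhlhe40 in 4 each. None of 22 target genes was called in whole CA RNA in the main edgeR fit, and the list medians were −0.05 (neuron) and 0.02 (whole CA). Bhlhe40 had −0.30 there (SE 0.10, edgeR adjusted p 0.107). It was called in 2 of 21 alternatives, with no filter and without control replicate 1.

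The list for glucocorticoid response held 17 genes, the receptor genes Nr3c1 and Nr3c2 among them. Of these, 2 were called higher and 1 lower in whole CA RNA, where 4.17% of all genes were called in either direction. In neuron RNA 0 were called by edgeR, where 2.75% of all genes were. Per1, a clock gene, averaged 56.6 ± 5.43 CPM (SD, n = 6) in controls and 74.6 ± 9.90 CPM in libraries labelled cKO (log2 fold change 0.40, SE 0.08, edgeR adjusted p 0.00861). Its groups overlapped, and it was called in 20 of 21 alternatives. Plin4, a lipid droplet coat gene, averaged 2.63 ± 1.18 and 5.86 ± 2.27 CPM (1.15, SE 0.30, adjusted p 0.0357), with overlap of the groups and a call in 11 of 21 alternatives. Nr3c2, the mineralocorticoid receptor, fell from 298 ± 14.9 to 232 ± 13 CPM (−0.36, SE 0.05, adjusted p 0.000234) and was called in all 21. The list medians were −0.12 (neuron) and 0.12 (whole CA).

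Of the spectrins and their partners, 0 of 18 tested were called in either material by edgeR, with list medians of −0.02 and 0.00. Sptan1, the alpha spectrin of the brain, came closest in whole CA RNA (log2 fold change 0.17, SE 0.05, edgeR adjusted p 0.0588), and it was called in 3 of 21 alternatives, DESeq2 among them. In neuron RNA it had 0.12 (SE 0.11, adjusted p 0.603). Sptb, Sptbn1 and Sptbn4, which encode beta spectrins, ranged from −0.22 to 0.09 in neuron RNA and from −0.01 to 0.13 in whole CA RNA.

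The unconventional myosins moved in both directions, with 1 of 21 tested called higher and 2 lower in both materials, where 2.75% (neuron) and 4.17% (whole CA) of all genes were called. Myo5c, a class V myosin, averaged 8.73 ± 1.16 CPM (SD, n = 3) in control neurons and 13.9 ± 0.12 CPM in those labelled cKO (log2 fold change 0.67, SE 0.11, edgeR adjusted p 0.0125), and in whole CA RNA it rose by 0.92 (SE 0.21, adjusted p 0.0136). Espn, the actin bundler that works with class III myosins, fell by 0.97 on the log2 scale in neuron RNA (SE 0.13, edgeR adjusted p 0.00476) and by 1.07 in whole CA RNA (SE 0.16, adjusted p 0.000449). Myo5b, which carries recycling endosomes, fell by 0.48 and 0.44 (adjusted p 0.0202 and 0.00269). Morn4, another class III partner, had −0.07 and −0.01 (adjusted p 0.737 and 0.933). In neuron RNA Espn was called in all 12 alternatives, Myo5c in 10 and Myo5b in 7, the last of them lost under a replicate block or without cKO replicate 1, 2 or 3 or control replicate 3, and Myo5c without cKO replicate 1 or control replicate 3. In whole CA RNA the call of Myo5c was lost within either lane, and those of Espn and Myo5b in replicates 1 to 3 alone. Of the proteins of Usher syndrome, Myo7a rose in whole CA RNA by 0.28 (SE 0.06, adjusted p 0.0156), a call lost within either lane. It was 1 of 8 tested, where 1.38% of all genes were called higher, and none of 10 was called in neuron RNA.

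**Figure D3:**
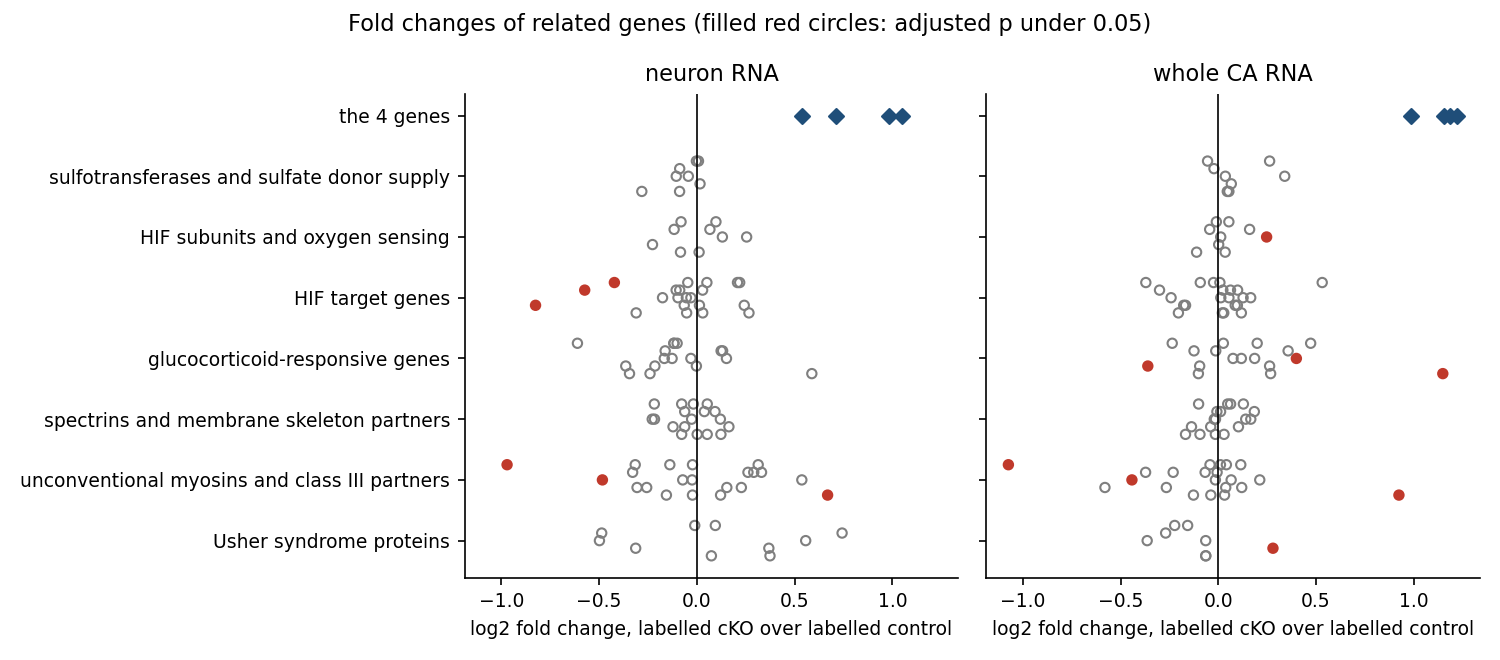
Log2 ratio of the groups labelled cKO and control (horizontal axis, above 0 where cKO was higher) in both materials, for the 4 genes (diamonds) and the tested genes of 7 related lists (circles, 1 per gene, filled red where the edgeR adjusted p was under 0.05). Most circles lie near 0, and the filled ones lie on both sides, such as Espn at −0.97 and Myo5c at 0.67 in neuron RNA.

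The genes next to the 4 in the annotation were read for comparison. The nearest tested neighbours were Cpne7 and Chmp1a for Sult5a1, Ppp5c and Psg16 for Hif3a, Mapkbp1 and Ehd4 for Sptbn5, and Ubr3 and Erich2 for Myo3b. Cpne7, whose gap to Sult5a1 is 7657 bases, fell by 0.21 in whole CA RNA (SE 0.06, edgeR adjusted p 0.0453), and no other neighbour was called in either material. Ehd4 lies 573 bases from Sptbn5 and had log2 fold changes of 0.05 and 0.04 (adjusted p 0.897 and 0.920). The span of Sptbn5 is also overlapped by the lncRNA Gm52559 on the other strand over 20417 bases and by Gm28042 and Pla2g4b over 1541 bases. Whether counting used strand is not given in the sources used here, so the Sptbn5 counts are uncertain to that extent. Pla2g4b itself had log2 fold changes of −0.04 and 0.00 (adjusted p 0.909 and 0.997).

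Profiles over the 12 whole CA libraries were compared among 13220 genes by the root mean square difference of log2 CPM centred on each gene. The gene most like Sult5a1 was Sptbn5, at 0.24, and the reverse held too, while the median over genes for Sult5a1 was 0.66. Wdr17, which encodes a WD-repeat protein, was among the 3 nearest of Sult5a1 (0.29), Hif3a (0.33) and Myo3b (0.28). The other nearest genes were Gm15624 for Sult5a1 (0.30), Etnppl, an enzyme of phosphoethanolamine breakdown (0.33), and Gm37233 (0.38) for Hif3a, Dalir (0.24) and Pcdhga4, a clustered protocadherin (0.24), for Sptbn5, and Lzts1, a postsynaptic protein gene (0.28), and Sptbn5 (0.28) for Myo3b. Since the genotype difference is part of every profile, any gene that was higher in these libraries by a like amount ranks near. In the neuron libraries, which were not used for the ranking, Wdr17 rose by 0.98 (edgeR adjusted p 0.000832), Dalir by 0.74 (adjusted p 0.0241) and Pcdhga4 by 0.73 (adjusted p 0.0157). Gm15624, Gm37233, Etnppl and Lzts1 had 0.66, 0.67, 0.60 and 0.37 there (adjusted p 0.0718, 0.0552, 0.359 and 0.0841).

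Some markers of other cell types were lower in the libraries labelled cKO, and none of the marker genes was called higher in either material. In bulk RNA, fewer cells of a type and less RNA per cell cannot be told apart. Dentate granule cell markers summed to 187 to 220 CPM in control neuron RNA and to 128 to 165 CPM in that labelled cKO. None of the 5 was at 0, and 4 of 5 were called lower, where 2.75% of all genes were called in either direction. Summed CA1 pyramidal markers ranged from 434 to 517 and from 342 to 410 CPM, with 2 of 5 called lower. Those of CA2 and CA3 ranged from 202 to 244 and from 179 to 199 CPM, with 0 of 5 called. In whole CA RNA the sums of all these lists overlapped between genotypes, such as dentate markers at 80.0 to 115 and 34.4 to 85.8 CPM. There 2 of 5 dentate, 2 of 5 CA1 and 3 of 5 CA2 and CA3 genes were called lower, where 4.17% of all genes were called. Summed markers of meningeal and perivascular fibroblasts ranged from 43.0 to 52.6 and from 13.8 to 16.6 CPM in neuron RNA, and from 99.3 to 121 and from 52.0 to 70.5 CPM in whole CA RNA. Dcn alone was called there, falling from 42.5 ± 4.56 to 11.3 ± 1.40 CPM (SD, n = 3) in neuron RNA and from 65.7 ± 13.3 to 13.8 ± 2.32 CPM (SD, n = 6) in whole CA RNA. The other tested markers of that list were not called and lay on both sides of 0, such as Lum at −0.33 and −0.72 and Igf2 at 0.14 and 0.08 on the log2 scale. Those of choroid plexus ranged from 26.7 to 29 and from 13 to 14.9 CPM in neuron RNA, and from 31.3 to 37.5 and from 18.1 to 21.4 CPM in whole CA RNA. Kl alone was at 27.6 ± 1.33 CPM in control neuron RNA and 13.1 ± 0.881 CPM in that labelled cKO (SD, n = 3 each), while Otx2 was at 0 in every neuron library. Endothelial and mural sums were higher without overlap in neuron RNA labelled cKO at low levels (4.00 to 4.68 against 3.14 to 3.96 CPM, and 13.3 to 14.5 against 10.9 to 13 CPM). Of all single genes tested there, 11.4% were higher without overlap. The tested endothelial and mural genes had median log2 fold changes of −0.09 and 0.15, and none was called. The part of any of these marker differences in the values of the 4 genes was not tested.

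The histone marks of sorted neuronal nuclei asked whether chromatin at the 4 genes differed between the genotypes. H3K4me3 marks active start sites, H3K4me1 lies at enhancers and around starts, and H3K27ac and H3K9ac mark active chromatin. The peak lists give no read counts per region, so the measure is the number of bases under peaks. In the window of 2000 bases on each side of the RefSeq start, Sptbn5 had no peak of any mark in any of 30 libraries, as had 26.2% of 32851 windows. Myo3b had no H3K4me3 or H3K9ac peak there in any library, and H3K4me1 over 263 to 837 bases in controls and 365 to 972 bases in libraries labelled cKO. Sult5a1 had an H3K4me3 peak in 1 of 4 libraries labelled control (256 bases) and 2 of 4 labelled cKO (304 and 250 bases), and H3K27ac over 2408 to 2719 and 1977 to 2651 bases. Hif3a had all 4 marks in every library.

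None of the start-site comparisons that could be fitted was called for the 4 genes, where 14.9% of H3K4me3 windows, 1.98% of those of H3K4me1, 0.414% of those of H3K27ac and 0.537% of those of H3K9ac were called. At unadjusted p under 0.05 there was 1 difference, of H3K9ac at Hif3a. The Hif3a start had 1267, 1491, 1139 and 928 bases of H3K9ac in libraries labelled control 1 to 4 and 1911, 1734 and 1803 bases in the 3 labelled cKO. The groups did not overlap, with a difference of 0.57 on the log2 scale of bases plus 100 (SE 0.15, limma adjusted p 0.171). The two-sided exact permutation test gave 0.0571, the smallest p that 4 against 3 libraries allow. H3K4me3 there covered 776 to 1275 and 1095 to 1549 bases, a difference of 0.36 (SE 0.17, 95% interval −0.03 to 0.75, limma adjusted p 0.195).

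Over the whole gene, a comparison added after the peak positions were seen, Hif3a had more bases under H3K4me3 peaks in the libraries labelled cKO. It had 1691, 1489, 1445 and 1652 bases in libraries labelled control 1 to 4 and 1803, 2063, 1788 and 2221 bases in those labelled cKO, without overlap. The difference was 0.31 (SE 0.09, limma adjusted p 0.0325), longer in 4 of 4 libraries, where 1.14% of 15569 genes were called longer (178) and 4137 shorter. Each library was also divided by its covered length summed over the spans of protein-coding genes. The split over all genes then turned to 4646 longer (29.8%) and 1806 shorter, and the Hif3a value was 0.56 (limma adjusted p 0.00247). Leaving out single libraries ended the call in 5 of 8 fits, those without cKO replicate 2 or 4 or control replicate 2, 3 or 4 (adjusted p 0.0525 to 0.0832), and so did a replicate block (0.0505).

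H3K4me3 over Myo3b covered 3337, 3589, 4615 and 4043 bases in libraries labelled control and 4124, 6959, 5175 and 5660 bases in those labelled cKO, with overlap and a difference of 0.47 (SE 0.17, limma adjusted p 0.0763). Over Sptbn5 it covered 829 to 1230 and 1037 to 1395 bases (0.27, SE 0.13, adjusted p 0.185). Both passed the threshold after division by the length summed over gene spans, with 0.72 (limma adjusted p 0.00333) and 0.52 (adjusted p 0.00985). In that fit 29.8% of genes were called longer. Myo3b also passed without cKO replicate 1 (0.59, limma adjusted p 0.0263). The other marks were called over none of the 4 genes, where 9.71% of genes were called for H3K4me1, 0.360% for H3K27ac and 0.796% for H3K9ac. H3K4me1 lay between 0.17 and 0.32 (limma adjusted p 0.183 to 0.287), H3K9ac between 0.14 and 0.67 (adjusted p 0.202 to 0.587), and H3K27ac between −0.30 and 0.02 (adjusted p 0.409 to 0.990).

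**Figure D4:**
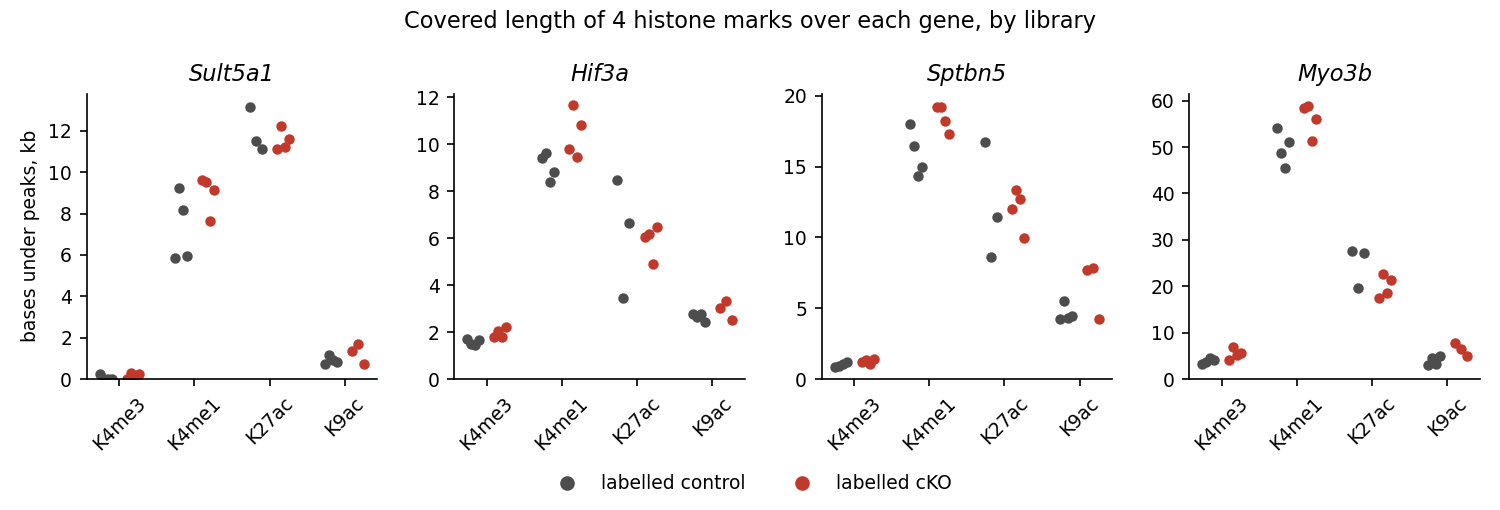
Bases under peaks of H3K4me3, H3K4me1, H3K27ac and H3K9ac (vertical axis, in kb) over the RefSeq span of each gene, with 1 point per library, grey for libraries labelled control and red for those labelled cKO. The Hif3a H3K4me3 points lie at 1445 to 1691 bases in controls and at 1788 to 2221 bases in libraries labelled cKO, and all other pairs of groups overlap.

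The peaks inside the genes were then taken as regions with a peak in at least 3 libraries. The tallest H3K4me3 region of Hif3a lay not at the RefSeq start but at chr7:17055737-17057020, 5407 to 6690 bases into the gene, with the authors' fold enrichment between 34.9 and 36.4 in libraries labelled control and between 29 and 41.0 in those labelled cKO. It differed by 0.01 (SE 0.06, limma adjusted p 0.933). The region 1310 to 2223 bases into the gene was shorter, with 329, 165, 0 and 377 bases in controls and 597, 687, 291 and 760 bases in libraries labelled cKO (1.27, SE 0.53, adjusted p 0.186). At the start itself the values were 611 to 898 and 712 to 960 bases (0.07, SE 0.13, adjusted p 0.798). Thus 3 of 4 libraries labelled cKO were above every control in the middle region, and the groups overlapped in all 3.

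Sptbn5, which had no peak at its RefSeq start, held an H3K4me3 region at chr2:120075944-120077049, 11864 to 12969 bases into the gene, in all 8 libraries. It covered 829 to 1038 bases in controls and 806 to 952 bases in libraries labelled cKO (−0.05, SE 0.09, limma adjusted p 0.784). The widest H3K4me3 region of Myo3b lay at chr2:70126327-70128513, 87201 to 89387 bases into the gene, with 1442, 1611, 1721 and 1357 bases in controls and 1706, 2024, 1762 and 1917 bases in libraries labelled cKO (0.26, SE 0.09, adjusted p 0.128). These 2 regions lie far from the annotated starts whose letters are shown above.

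Of 17 H3K4me3 regions inside the 4 genes 1 was called, where 10.8% of 44667 regions were, and of 51 H3K27ac regions 1, where 2.61% were. None of 47 H3K4me1 regions and 29 H3K9ac regions was called, where 1.49% and 2.72% were. The H3K4me3 region, in Myo3b at chr2:70214380-70214744, was listed in all 4 libraries labelled cKO (152, 200, 218 and 237 bases) and in no control (limma adjusted p 6.64e-05). The H3K27ac region, in Myo3b at chr2:70110492-70110995, was listed in all 3 controls (261, 206 and 228 bases) and in none of the 4 labelled cKO (adjusted p 0.00168). Each met the rule of 3 libraries through 1 genotype alone, so it had to differ, and a region without a listed peak can still carry the mark.

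**Figure D5:**
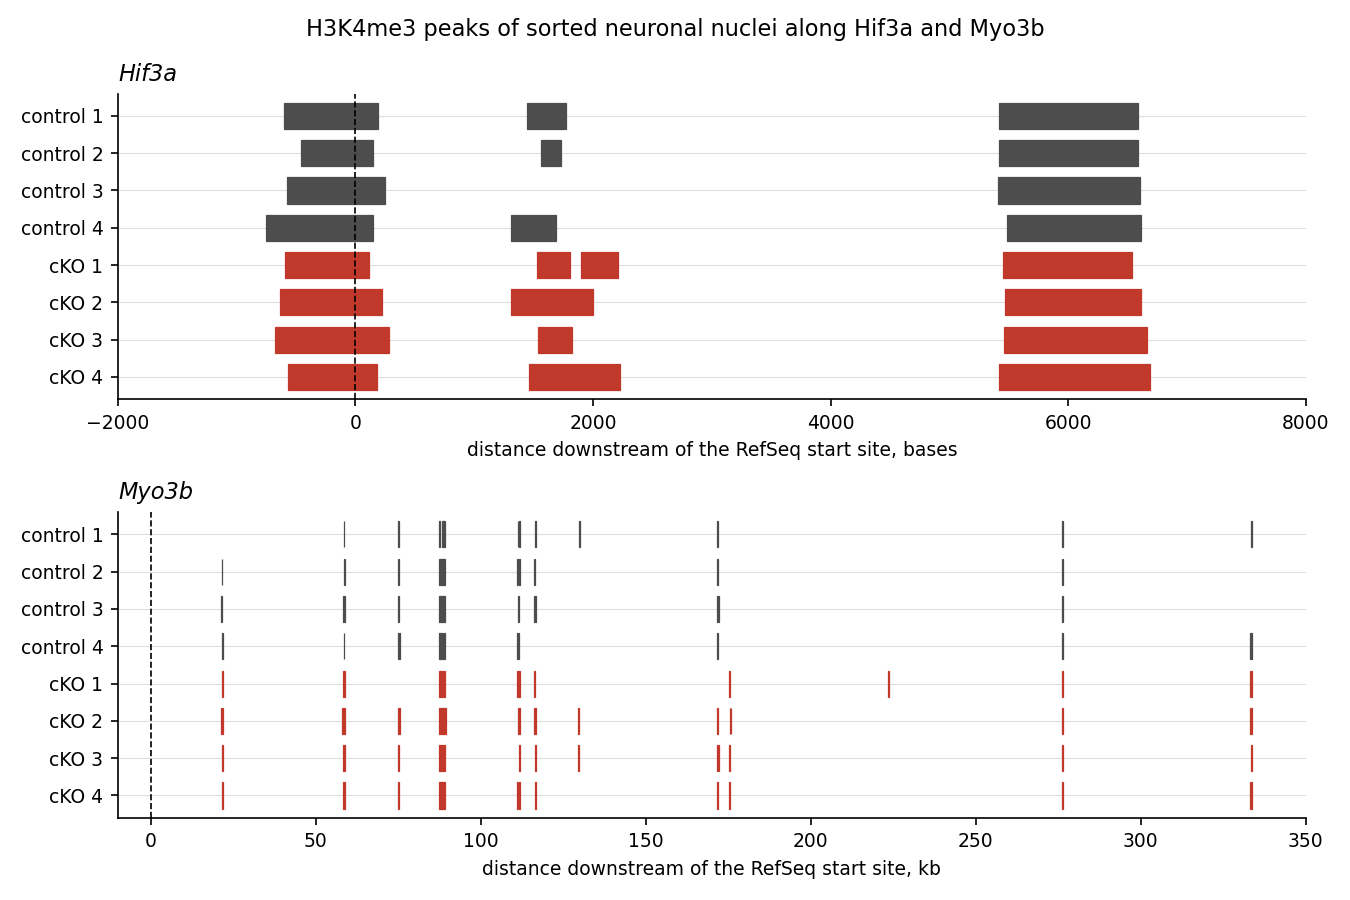
H3K4me3 peaks of each library as bars, by distance downstream of the RefSeq start (dashed line), along Hif3a (axis in bases) and Myo3b (axis in kb), grey for libraries labelled control and red for those labelled cKO. Hif3a shows peaks at its start, near 1310 to 2223 bases and at 5407 to 6690 bases, and Myo3b shows none at its start and its widest at 87201 to 89387 bases.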

How the data were processed

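The authors deposited read counts, whole numbers per Ensembl ID, 1 table for each RNA library. The aligner, counter and strandedness of these counts are not given in the sources used here. Their peak lists hold for each peak a length in bases, a pileup (tag coverage, a signal), a fold enrichment ratio over input, and −log10 p-values and q-values, per the file headers. Peaks were called per library with MACS 2.1.1.20160309 for H3K4me3 and 2.1.0.20140616 for the other marks, at a q-value under 0.1, against 1 input per genotype, per the file headers, so input and genotype cannot be told apart. The genome build was mm10 (GRCm38), per the submitters' processing notes, and RefSeq start sites of GRCm38.p6 were used. As a check, 47.1 to 54.4% of start-site windows touched a peak in each library, against 4.32 to 21.5% after a shift of 1000000 bases.

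Symbols matched 99.3% of the IDs found in both tables. Counts were fitted with edgeR 4.0.16 (TMM factors, filterByExpr, quasi-likelihood test, Benjamini-Hochberg over all genes tested), per material, with calls at an adjusted p under 0.05. Covered bases (log2 of bases plus 100) were compared with limma 3.58.1 over all windows with a peak in at least 3 libraries. ChIP libraries held 24.4 to 41.6 M tags. Fits were tested on simulated data. The genes named were Setd1b, the 4 genes, called genes of the lists, close relatives, 3 genes of nearest profile per gene and the tested neighbours, and Morn4, the genes overlapping Sptbn5, the neuron values of the nearest profiles and the regions were singled out after values were seen. The 4 genes and the lists were chosen with earlier results of these data known. Alternatives were DESeq2 1.42.0, factors by RLE or from library size alone, no filter or a minimum mean count of 10, single lanes, a replicate block, leaving out each library, and for peaks a −log10 q of at least 5, windows of 5000 bases, an offset of 1000 bases and the exact permutation test. Comparisons over gene spans and regions were added after the data were seen.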

Additional observations from a re-analysis of the deposited data

Results flagged for a closer look

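In 45 groups of 4 to 6 libraries, 3 had 1 library far from the others, and chance flags about 1 in 20 groups. Sptbn5 was covered by 5537 bases of H3K9ac over its span in control replicate 2, while the other 3 controls lay between 4250 and 4455 bases. Sult5a1 had 256 bases of H3K4me3 in control replicate 1, at the start site and hence also over the span, while the other 3 controls had 0.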

How the results depend on the processing

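In neuron RNA 41 of 48 fits of the 4 genes gave the same call and direction. These include the 12 fits of Hif3a, which stayed uncalled, and the other 7 were lost calls of Sult5a1 and Myo3b. Leaving out 1 library gave log2 fold changes of 0.84 to 1.12 for Sult5a1 and 0.68 to 0.74 for Myo3b. Genes called in neuron RNA numbered 539, and 833 with DESeq2, 207 to 482 with 1 library left out (21 to 118 higher, 186 to 364 lower) and 327 with a replicate block (59 higher). In whole CA RNA 640 were called, 207 in replicates 1 to 3 alone (58 higher, 149 lower) and 224 in replicates 4 to 6 alone (42 higher, 182 lower). DESeq2 called 333 higher there, against 212, and without control replicate 3 there were 138.

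Whether the replicate numbers pair the samples was not clear. Same-numbered neuron libraries had correlations of −0.13, 0.56 and −0.50, and those of whole CA RNA −0.15 to 0.37. The same-numbered control was the most alike for neuron cKO replicate 2 and whole CA cKO replicates 4 and 5. Same-numbered whole CA libraries also shared a lane. With a replicate block Myo3b had 0.71 in neuron RNA (edgeR adjusted p 0.0605), and Sult5a1, Sptbn5 and Hif3a kept their side of the threshold. Between control materials, Sult5a1 passed the threshold with RLE factors (−0.44) and with a block (−0.60), and without neuron control replicate 1 (−0.56, adjusted p 0.0238) or whole CA control replicate 6 (−0.52, adjusted p 0.0159), in a range from −0.56 to −0.27 with 1 library left out. Hif3a ranged from 0.37 to 0.57 and Myo3b, uncalled, from −0.068 to 0.095, with −0.0073 under RLE factors. Calls between control materials are not independent of the choice of the genes, in which whole CA control values took part.

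Among start-site comparisons, all uncalled, Hif3a H3K4me1 was −0.19 in the main fit, where peaks filled the window, 4001 bases, in every control. It turned to 3.79 at a −log10 q of at least 5. Hif3a H3K27ac ranged from −0.10 to 0.32 without single libraries. Sult5a1 H3K9ac turned to −0.25 in the wider window, −0.045 with the larger offset and −0.52 with a block, and ranged from −0.52 to 0.42. Over spans, H3K27ac ranged from −0.35 to 0.29 for Hif3a (−0.0055 with a block), from −0.21 to 0.26 for Sptbn5 (−0.043 with a block) and from −0.092 to 0.027 for Sult5a1. Hif3a H3K4me3 over the span lost its call with a block (0.31, limma adjusted p 0.0505). The cause of these shifts was not tested. Whole CA counts of at most 60 for Sptbn5 limit its precision, and covered length does not measure peak height.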
